A study of Mus musculus with 68 samples.

Results

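The subject here is a group of 32 genes that carry high-confidence genetic evidence for autism, taken as a fixed list of symbols and found by gene identifier among the 18088 genes of the deposited table. All 32 were present and all 32 passed the filter of a mean of at least 5 normalised counts, where a normalised count is a read count divided by the size factor of its library. They were read by RNA sequencing of prefrontal cortex from 68 C57BL/6J mice aged 25 days. The mice were heterozygous for a mutant Adnp allele (HT) or wild type (WT). From day 3 to day 24, about 3 weeks, they received vehicle, fluoxetine or lithium by way of the mother's milk, so that every group shares the dosing route, the strain and the age. Fluoxetine blocks serotonin reuptake, and lithium is a mood stabiliser that inhibits glycogen synthase kinase. The vehicle arm held 16 HT mice (8 of each sex) and 15 WT mice (8 females, 7 males), 1 library per mouse. The fluoxetine arm held 5 mice of each sex and genotype. The lithium arm held 9 HT mice (4 females, 5 males) and 8 WT mice (5 females, 3 males). The labels do not name litters, so the p-values measure the spread between libraries, which may share a mother.

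Adnp encodes a zinc finger protein that binds chromatin together with remodelling enzymes, and mutation of human ADNP causes a syndromic form of autism. Many of the strongest autism risk genes also act in the nucleus of developing neurons, where they move nucleosomes, write or remove histone marks, or bind DNA as transcription factors. Others build the synapse, carry the sodium currents of the action potential, or set the rate of growth and protein turnover. Most were identified through loss of 1 gene copy, so modest changes in their level are of interest. The list holds 20 chromatin and transcription genes, 6 signalling and protein turnover genes and 6 synapse, adhesion and channel genes.

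The promoter windows at hand ranged from dense in CpG pairs to almost free of them. RefSeq windows on GRCm38.p6 were at hand for 26 of the 32 genes. In the 250 bases before the start site the CpG count ran from 0 in Setd5, a SET-domain chromatin regulator, to 51 in Med13l, a Mediator kinase module subunit, with a median of 21. The first listed window of each gene was used. That of Setd5 (chromosome 6, 113104685 to 113104934, plus strand) lies inside the gene, whose annotated start is 113077365. Its count therefore does not describe the bases before that start. The windows of Arid1b, Naa15, Tbr1, Foxp1, Bcl11a, Trip12 and Cntnap2 also lie inside the annotated gene. The range, median and GC box share of the 26 windows thus include windows downstream of the annotated gene start. The median over 12720 tested genes with a window was 15, and 17 of the 26 lay above it. The GC box GGGCGG, read on both strands, was present in 16 of the 26 windows (61.5%), against 55.9% of tested genes and 32.7% of all 32851 windows. A match of letters describes the window and does not show a bound site. The following 3 stretches, 1 from each functional class of the list, show CpG-dense promoters and a CpG-poor one, and each was trimmed to lie outside every annotated exon of GENCODE vM21 and every RefSeq gene. Capitals mark CpG pairs, and the sequences run 5′ to 3′ on the strand of the gene. The Ankrd11 stretch (minus strand, chr8:123042285-123042465) holds 24 CpG pairs in 181 bases. The Cul3 stretch (minus strand, chr1:80340691-80340912) holds 22 in 222 bases. The Scn2a stretch (plus strand, chr2:65620519-65620763) holds 2 in 245 bases.
Ankrd11: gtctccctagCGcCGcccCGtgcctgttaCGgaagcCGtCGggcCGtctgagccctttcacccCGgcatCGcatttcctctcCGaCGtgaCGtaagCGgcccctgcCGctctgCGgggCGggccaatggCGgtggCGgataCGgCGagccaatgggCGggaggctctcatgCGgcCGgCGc
Cul3: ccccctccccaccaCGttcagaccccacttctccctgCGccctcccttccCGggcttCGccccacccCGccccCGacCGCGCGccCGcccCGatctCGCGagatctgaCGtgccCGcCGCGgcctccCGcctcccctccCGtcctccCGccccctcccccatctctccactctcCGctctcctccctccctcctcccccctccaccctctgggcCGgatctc
Scn2a: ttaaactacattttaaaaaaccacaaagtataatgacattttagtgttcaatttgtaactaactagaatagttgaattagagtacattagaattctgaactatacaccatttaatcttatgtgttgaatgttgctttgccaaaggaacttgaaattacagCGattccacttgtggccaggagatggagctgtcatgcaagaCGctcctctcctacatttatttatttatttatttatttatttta

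The 32 genes were well expressed and physically long. Their mean normalised counts ran from 557 for Asxl3, a Polycomb-associated protein, to 10186 for Scn2a, a neuronal sodium channel. The median was 2973, against 424 over the 17922 genes tested. Per kilobase of exon, which is the scale for comparing genes, the highest level was 939.9 counts per kb in Shank3, a scaffold of the excitatory synapse. It was followed by 800.0 in Scn2a, 752 in Shank2, the related scaffold, and 752 in Cul3, the core of a ubiquitin ligase. The lowest were 35.9 in Asxl3 and 48.8 in Phip, a bromodomain protein. The median gene spanned 117 kb of genome against 21.1 kb over all tested genes. A total of 18 of the 32 (56.25%) spanned at least 100 kb, against 13.6% of tested genes. The longest was Cntnap2, a neurexin-like adhesion protein (chromosome 6, 45059357 to 47304213, plus strand, GRCm38, GENCODE vM21 annotation, as for all gene positions here), at 2245 kb.

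Facts of the whole series bear on each comparison. Libraries held 22356015 to 37534435 recovered reads. They were split into 3 sets, a number given to the clustering, by their levels of 361 pseudogenes. The labels do not name these sets, and their origin was not tested. Every fluoxetine library and 8 HT vehicle libraries made up set 1, set 2 held all lithium libraries with 6 HT and 5 WT vehicle libraries, and set 3 held 10 WT and 2 HT vehicle libraries. Comparisons within a set are therefore given beside the pooled ones. All 10 excitatory neuron markers were detected, with summed normalised counts of 137016 to 231857 per library. Markers of neighbouring tissue varied widely: 8 olfactory bulb genes summed to 586 to 30829, and 10 striatal neuron genes to 4311 to 19203. In such bulk tissue, fewer cells of a type and less RNA per cell cannot be told apart. Adnp itself (chromosome 2, 168180986 to 168207112, minus strand) was not lower in libraries labelled HT. Within set 2 vehicle libraries its lowest, median and highest normalised counts were 2207, 2393 and 2553 in HT and 1978, 2073 and 2290.2 in WT. Over the mean of the vehicle, fluoxetine and lithium arms HT exceeded WT (0.25 on the log2 scale, SE 0.05, adjusted p = 0.00023), so its gene-level count does not check the genotype labels.

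The 32 genes moved together from library to library. After group and set means were removed, the median Pearson correlation between 2 of them over the 68 libraries was 0.34 (496 pairs), against -0.01 between one of them and another tested gene. Of their pairs 25.2% exceeded 0.5, against 5.25% of the pairs with other genes. These are descriptions, since all pairs share the same libraries, and high expression and gene length are shared too. The closest pairs were the sodium channels Scn1a and Scn2a, which are neighbours on chromosome 2 (r = 0.86), and the synaptic scaffolds Shank2 and Shank3 (r = 0.82). They were followed by Wac, a regulator of histone ubiquitination, with Cul3 (r = 0.81) and by Ash1l with Trip12 (r = 0.80). Trip12 had the highest median correlation with the other members (0.55), and Shank3 the lowest (-0.08). Shank3 ran opposite to the histone methyltransferase Kmt5b (r = -0.62) and to the histone demethylase Kdm5b (r = -0.57).

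Both WT lithium female 5 and WT lithium male 2 stood apart. The mean log2 level of the 32 genes, minus its mean over all libraries, was -0.21 in the first and -0.21 in the second, whereas the other WT lithium libraries lay between -0.05 and 0.04. In the same pair of libraries the mean of 75 cytosolic ribosomal protein genes was 0.33 and 0.33 above its mean, the mean of 87 nuclear oxidative phosphorylation genes was 0.33 and 0.34 above, and long genes other than the members were at -0.13 and -0.17. WT lithium female 5 also had the highest choroid plexus score of the series (2.91), while WT lithium male 2 was at -0.73. Leaving both out lowered the median correlation between the 32 genes from 0.34 to 0.27. What sets these libraries apart was not tested, and for the comparisons that use them the values without both follow where they differ.

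**Figure D1:**
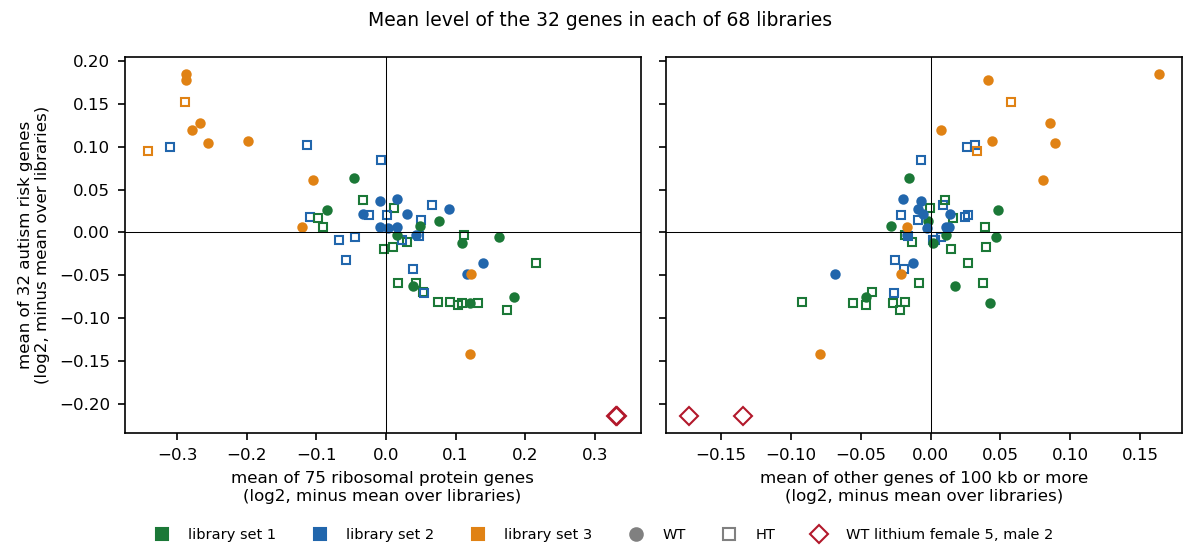
Mean log2 level of the 32 autism risk genes in each of 68 libraries (y axis, minus the mean over libraries), against the mean of 75 ribosomal protein genes (left) and of other genes of at least 100 kb (right), on the same scale. Colours are the 3 library sets, filled symbols WT and open squares HT; the open red diamonds, WT lithium female 5 and male 2, lie at -0.21 and -0.21, the lowest of all libraries, and at 0.33 and 0.33 for ribosomal protein genes, the highest.

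The first comparison asked what the Adnp genotype did to these genes under vehicle. Over all 31 vehicle libraries, 6 of the 32 genes fell in HT and 0 rose (limma on log2(value + 1), adjusted p under 0.05), while 7.21% of all tested genes fell and 7.74% rose. The median over the 32 was -0.06 against -0.01 over all genes. A total of 5 of the lower genes belong to the chromatin and transcription class of the list. The log2 difference was -0.14 for Tcf4, a basic helix-loop-helix factor mutated in Pitt-Hopkins syndrome, -0.18 for Bcl11a, a zinc finger protein of the BAF complex, -0.14 for Naa15, a subunit of an N-terminal acetyltransferase, -0.11 for Wac and -0.09 for Setd5. The other was Nf1, an inhibitor of Ras signalling (-0.13). Adjusted p-values ran from 0.0048 to 0.036. The count was 1 without WT vehicle male 5, 2 without male 1, 3 without male 2 or female 4, 10 without WT vehicle female 7 or HT vehicle male 1, and 11 without HT vehicle male 2. The largest difference, that of Bcl11a, corresponds to 0.880 of the WT level.

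None of these 6 genes passed within a library set. In set 3 the lowest, median and highest normalised counts of Tcf4 were 9415, 10317 and 11504 in 10 WT vehicle libraries, with 10237 and 10263 in the 2 HT vehicle libraries. In set 2 Tcf4 had 8213, 8311, 8512, 8693 and 8944 in the 5 WT vehicle libraries and a lowest, median and highest value of 8307, 8512 and 8668 in the 6 HT vehicle libraries. The set 3 libraries of both genotypes lay above all set 2 libraries, and within a set the genotypes overlapped. In set 3, Bcl11a had a lowest, median and highest value of 2709, 3618 and 4141 in the 10 WT vehicle libraries. In set 2 it had 2367, 2498, 2501, 2534 and 2858 in the 5 WT vehicle libraries and a lowest, median and highest value of 2489.7, 2612 and 2851 in the 6 HT vehicle libraries. The 2 HT vehicle libraries of set 3 read 3205 and 3329.7. Most set 3 libraries of Bcl11a were above the set 2 range, and the genotypes overlapped within both sets. Among set 3 males the Bcl11a difference was -0.23 (adjusted p = 0.29), at least as large as the pooled one. Within set 2 the genotype difference was -0.01 for Tcf4, 0.07 for Bcl11a, -0.02 for Naa15, -0.02 for Wac, -0.04 for Setd5 and -0.04 for Nf1.

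Between set 3 and set 2 in WT vehicle libraries alone, 10 of the 32 genes were higher and 3 lower in set 3, where 21.0% of all genes were higher and 21.4% lower. Tcf4 was 0.27 higher on the log2 scale, Bcl11a 0.49, Naa15 0.29, Wac 0.19 and Setd5 0.09, which are 5 of the 6 genes above. Asxl3 (0.50), Phip (0.29), Kmt2a (0.26), Cul3 (0.22) and Kmt2c (0.19) were also higher; Kmt2a and Kmt2c methylate a lysine of histone H3. The 3 lower genes were Ankrd11, a chromatin regulator (-0.19), Tsc1 (-0.18) and Tsc2 (-0.12), whose products together restrain mTORC1. Beside these genes, all 8 olfactory bulb markers were higher in set 3 (median 2.69) and 8 of 10 striatal neuron and 8 of 10 oligodendrocyte markers were lower (medians -1.16 and -0.70). The mean log2 score of the olfactory bulb markers ran from -2.06 to 3.53 over the set 3 and from -3.03 to 1.72 over the set 2 libraries. The part of these markers in the result was not tested. Pooled, set and genotype differ together, because set 3 holds 10 of the 15 WT and 2 of the 16 HT vehicle libraries.

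**Figure D2:**
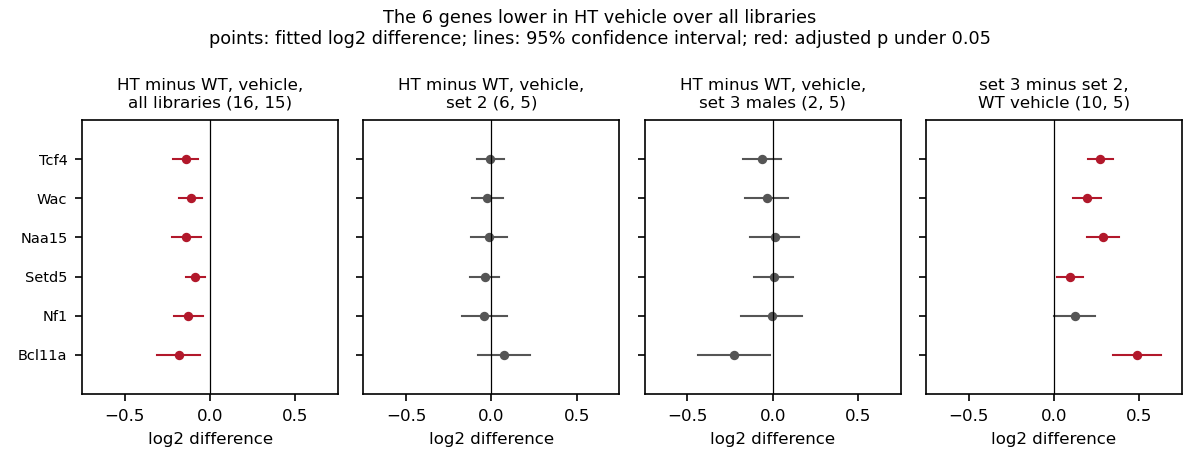
Fitted log2 differences (x axis, points) with 95% confidence intervals (lines) of the 6 genes that were lower in HT vehicle over all libraries (y axis), with library numbers in the panel titles; red marks an adjusted p under 0.05. The HT minus WT difference of Tcf4 is -0.14 over all libraries, -0.01 in set 2 and -0.06 in set 3 males, and its set 3 minus set 2 difference is 0.27.

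Within set 2, 0 of the 32 genes passed between 6 HT and 5 WT vehicle libraries, where 0.536% of all genes passed with limma. None of the 32 had an unadjusted p under 0.05, against 5.84% of all genes, and after adjustment edgeR on recovered reads called 0 of them as well. Tsc1 had a lowest, median and highest value of 2242, 2314 and 2357 in the 6 HT vehicle libraries and 2363, 2418, 2441, 2448 and 2521 in the 5 WT vehicle libraries. Its groups did not overlap, but how many of all tested genes separate in this way was not counted. Tsc1 had the smallest p-value (log2 difference -0.07, SE 0.05, adjusted p = 0.999). Satb1, a genome organiser in neurons, had a lowest, median and highest value of 2428, 2883 and 3269 in the 6 HT vehicle libraries and 2734, 3153, 3245, 3281 and 3417 in the 5 WT vehicle libraries, and its groups overlapped (log2 difference -0.15, SE 0.10, adjusted p = 0.999). Foxp1, a forkhead transcription factor, was at -0.14. The median over the 32 genes was -0.03, with 27 below 0, against -0.0086 over all genes. A second comparison inside 1 set was open to males of set 3, with 2 HT and 5 WT libraries, and 0 of 32 passed there too (1.03% of all genes). The smallest p-values were those of Chd2, a chromatin remodeller (log2 difference -0.23, SE 0.07, adjusted p = 0.11), Bcl11a (-0.23) and Kmt5b (-0.19). At an unadjusted p under 0.05 limma counted 3 genes (9.4%, against 15.3% of all genes), and after adjustment edgeR called 0.

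Under fluoxetine all 20 libraries belong to set 1, and 0 of the 32 genes differed between genotypes, where 1.98% of all genes did. At an unadjusted p under 0.05 there were 3 (9.4%, against 12.6% of all genes), and after adjustment edgeR called 0. Tbr1, a T-box factor of deep-layer cortical neurons, had a lowest, median and highest value of 2757, 3372 and 4692 in the 10 HT fluoxetine libraries and 1583, 3030.1 and 4411 in the 10 WT fluoxetine libraries. The groups overlapped over most of their range (log2 difference 0.29, SE 0.13, adjusted p = 0.33). Shank3 had a lowest, median and highest value of 4914, 7737 and 8998 in the 10 HT fluoxetine libraries and 7463, 8031 and 10339 in the 10 WT fluoxetine libraries. The lowest Shank3 reading was an HT library and the highest a WT library, with overlap (log2 difference -0.16, SE 0.08, adjusted p = 0.39). Arid1b, a DNA-binding subunit of the BAF complex, was at -0.11 (adjusted p = 0.39). The median over the 32 genes was -0.02, with 10 above and 22 below 0, against -0.0018 over all genes.

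Under lithium all 17 libraries belong to set 2, and 3 of the 32 genes were higher in HT while 0 were lower; 1.48% of all genes were higher and 1.03% lower. The 3 were Med13l, the Mediator subunit (chromosome 5, 118560679 to 118765438, plus strand), Ash1l, a histone methyltransferase (chromosome 3, 88950622 to 89079375, plus strand), and Trip12, a ubiquitin ligase (chromosome 1, 84721189 to 84840516, minus strand). The direction was wide: 31 of the 32 genes lay above 0 with a median of 0.08, against 50.7% of all genes above 0 and a median of 0.0019. Without WT lithium female 5 and male 2, 26 of 32 lay above 0, against 50.2% of all genes. Of genes of at least 100 kb, 71.0% lay above 0 with all libraries and 60.2% without both. Of other autism genes, counted at the end, 94% of chromatin, 83.9% of synapse, 81.8% of channel and 65.5% of signalling genes lay above 0. Without both libraries these shares were 76%, 61.3%, 68.2% and 55.2%. With all libraries the median was above 0 in all 3 functional classes of the 32. It was 0.08 for chromatin and transcription, 0.04 for signalling and turnover, and 0.12 for synapse and channels. Shank3 alone was below 0 (-0.03).

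Med13l read 3363, 3114, 3107 and 3111 normalised counts in the 4 HT lithium females and 3631, 3502, 3268, 3115 and 3084 in the 5 HT lithium males. It read 2919, 3205, 3006, 3114 and 2444 in the 5 WT females and 3183, 2026 and 2824 in the 3 WT males, in order of replicate number. All 9 HT libraries lay above 5 of the 8 WT libraries, and the lowest WT readings came from female 5 and male 2. The Med13l level rose in HT under lithium (log2 difference 0.22, SE 0.06, adjusted p = 0.016).

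Ash1l read 4245, 4191, 4532 and 3838 in HT females and 4500.1, 4396, 4239, 4112 and 3946 in HT males. It read 3652, 4119.7, 3935, 3779 and 2757 in WT females and 4085, 2765 and 3747 in WT males. The same WT libraries, female 5 and male 2, were again far below the rest, and 6 of the 9 HT libraries exceeded every WT library. The HT level of Ash1l was the higher one (log2 difference 0.25, SE 0.07, adjusted p = 0.024).

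Trip12 read 5481, 5495, 5856 and 5058 in HT females and 5892, 5579.8, 5423, 5269.5 and 5288 in HT males. It read 4836, 5192, 5214, 5053 and 4585 in WT females and 5566, 4465 and 5102 in WT males. Here only 4 of the 8 WT libraries lay below all HT libraries, and 3 of the 9 HT libraries exceeded every WT library. The highest WT reading was that of male 1, and the groups overlapped. Trip12 also rose (log2 difference 0.13, SE 0.04, adjusted p = 0.034).

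**Figure D3:**
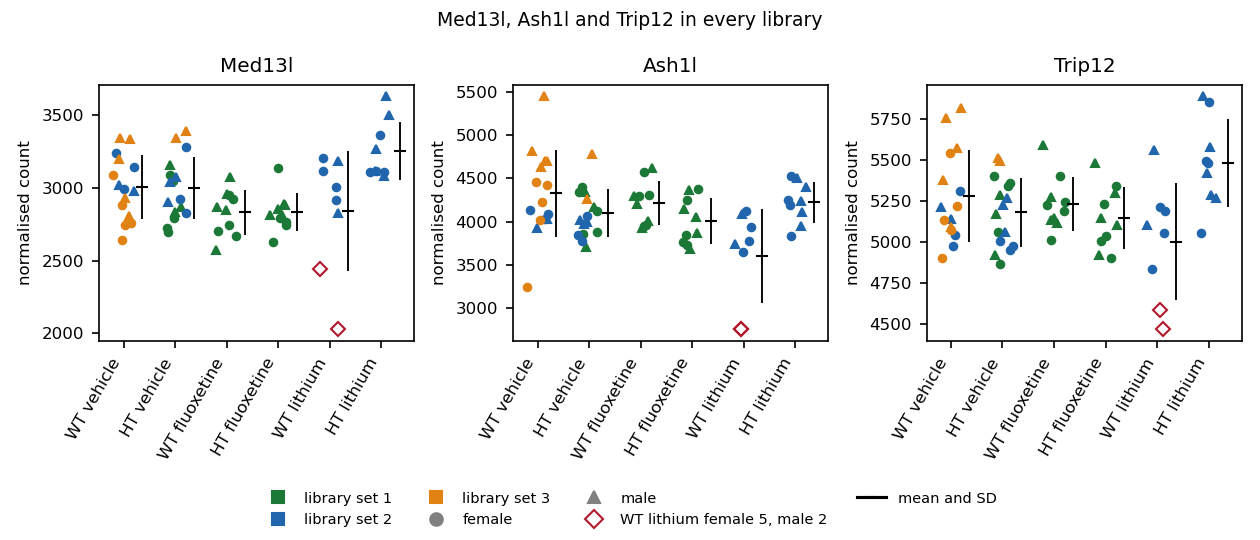
Normalised counts (y axis, linear and not starting at 0) of Med13l, Ash1l and Trip12 in every library, by genotype and treatment (x axis); colours are library sets, circles females, triangles males, and the bar beside each group is its mean with SD. The open diamonds are WT lithium female 5 and male 2, at 2444 and 2026 for Med13l, below all HT lithium libraries.

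All 3 calls ended when WT lithium female 5 and male 2 were left out. Med13l then stood at 0.10 (adjusted p = 0.68), Ash1l at 0.12 (adjusted p = 0.70) and Trip12 at 0.07 (adjusted p = 0.64), with 6 WT and 9 HT libraries. The median over the 32 genes went from 0.08 to 0.03, and the calls over all genes from 450 to 138. Leaving out female 5 alone, or male 2 alone, also ended all 3 calls, and 1 call was left without HT lithium female 3, while 5 genes passed without WT lithium male 3. With the mean scores of astrocyte, oligodendrocyte, endothelial, striatal neuron and choroid plexus markers as covariates 6 genes passed. The share of all genes that passed in that fit is not given here, so the 6 cannot be read as a result about the members. Beside the higher autism genes, 18 of 75 ribosomal protein genes were lower in HT lithium libraries (median -0.20) and 20 of 87 oxidative phosphorylation genes were lower and 1 higher (median -0.17). All 10 striatal neuron markers were above 0 as well (median 0.33), with summed counts of 5631 to 17273 in HT and 5331 to 12489 in WT and no marker at 0 throughout. Of astrocyte markers 9 of 10 lay below 0 and 1 passed (median -0.11), with a mean score of 0.02 ± 0.07 (SD, n = 9) in HT and 0.17 ± 0.07 (SD, n = 8) in WT. Of mural markers 7 of 8 lay below 0 and 0 passed (median -0.14). The part of these lists in the result was not tested. Genes of at least 100 kb had a median of 0.05, with 66 higher and 15 lower of 2442. Without both libraries no ribosomal protein gene passed. The medians of ribosomal protein, oxidative phosphorylation and long genes were then -0.13, -0.10 and 0.02. In that fit all 10 striatal neuron markers again lay above 0 (median 0.44, 0 passed). All 10 astrocyte markers (median -0.14, 1 passed), all 8 mural markers (-0.17) and all 8 olfactory bulb markers (-0.40) lay below 0. The marker differences between genotypes thus remained, and their part was not tested.

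The vehicle libraries of set 2, the fluoxetine libraries and the lithium libraries form 3 arms that share no library, and their mean asks what genotype did averaged over the treatments. None of the 32 genes passed with limma, where 4.65% of all genes did, and edgeR called 0. At an unadjusted p under 0.05 limma counted 1 gene (3.1%), against 14.3% of all genes. In this fit, which used all libraries, 31 of 32 confidence intervals (95%) lay inside ±0.2 on the log2 scale. The outermost bounds were -0.19 and 0.26. The smallest p-values were those of Med13l (0.07, interval 0.00034 to 0.13, adjusted p = 0.34), Cntnap2 (0.05, -0.01 to 0.11) and Satb1 (-0.09, -0.19 to 0.01). Without WT lithium female 5 and male 2, Med13l was at 0.02, Cntnap2 at 0.03 and Satb1 at -0.09, and the median over the 32 went from 0.02 to -0.0024. The widest interval was that of Tbr1 (0.09, -0.09 to 0.26). With all libraries, 2 of the 32 genes (6.25%) had the same sign in all 3 arms, against 28.9% of all tested genes. They were Kdm5b, higher by 0.04, 0.02 and 0.05 in the order vehicle, fluoxetine and lithium, and Shank3, at -0.04, -0.16 and -0.03. Without WT lithium female 5 and male 2 the count was 5 (15.6%, against 31.8% of all genes), with Chd2, Tsc1 and Shank2 lower in all 3 arms as well.

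The chromatin, channel and growth genes named here had 3-arm differences near 0 with all libraries, and the synaptic scaffolds lay lower. Chd8, a chromatin remodeller, differed by 0.0022 (interval -0.04 to 0.04), Ankrd11 by -0.0029 (-0.06 to 0.05) and Arid1b by -0.02 (-0.09 to 0.06). Scn2a, the sodium channel of the axon initial segment early in life, differed by 0.01 (-0.07 to 0.10), and Scn1a, the channel of inhibitory neurons mutated in Dravet syndrome, by 0.03 (-0.05 to 0.11). Both synaptic scaffolds lay below 0, Shank2 at -0.05 (-0.15 to 0.04) and Shank3 at -0.08 (-0.19 to 0.03). Without WT lithium female 5 and male 2, Shank2 was at -0.08 (limma adjusted p = 0.48) and Shank3 at -0.10 (adjusted p = 0.47). In that fit Chd8 was at -0.02, Ankrd11 at -0.03, and Arid1b and Tsc1 both at -0.04. Of the growth regulators, Tsc1 was at -0.02 (-0.07 to 0.02), Tsc2 at 0.01 (-0.03 to 0.06), Nf1 at 0.03 (-0.04 to 0.09) and Cul3 at 0.02 (-0.03 to 0.06). As levels, Chd8 had a mean of 2855 ± 73.7 (SD, n = 6) in HT and 2901 ± 105 (SD, n = 5) in WT under vehicle in set 2. Scn2a had 10072 ± 1062 (SD, n = 6) and 10871 ± 630.5 (SD, n = 5), and Shank3 8842 ± 997 (SD, n = 6) and 9047 ± 495 (SD, n = 5). The means of Chd8 and Shank3 differed by less than the SD of either group, and those of Scn2a by less than the SD of the HT group.

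The signs of the 32 genes differed between the arms. The 32 genes had 27 negative differences under vehicle in set 2, 22 under fluoxetine and 1 under lithium, or 6 under lithium without WT lithium female 5 and male 2. The median over all genes was -0.0086, -0.0018 and 0.0019 in these arms. Because the 32 genes moved together between libraries (median r = 0.34), their signs are not independent. Under lithium Satb1 had a lowest, median and highest value of 2752, 3018 and 3548 in the 9 HT lithium libraries and 2746, 3162 and 3429 in the 8 WT lithium libraries. Under fluoxetine it had a lowest, median and highest value of 2178, 2564 and 3102 in the 10 HT fluoxetine libraries and 2381, 2676 and 3553 in the 10 WT fluoxetine libraries. Cntnap2 had a lowest, median and highest value of 3247, 3428 and 3522 in the 6 HT vehicle libraries and 3112, 3395, 3456, 3635 and 3654 in the 5 WT vehicle libraries in set 2. Under lithium it had a lowest, median and highest value of 2881, 3345 and 3549.6 in the 9 HT lithium libraries and 2500.5, 3100.5 and 3279 in the 8 WT lithium libraries. The groups overlapped in each of these comparisons. Tested directly, the genotype effect under lithium minus that under fluoxetine passed for 0 of the 32 genes with limma (0.190% of all genes). It was nearest for Ash1l (log2 difference 0.32, SE 0.09, adjusted p = 0.087), Setd5 (log2 difference 0.18, SE 0.05, adjusted p = 0.11) and Kmt2c (log2 difference 0.31, SE 0.09, adjusted p = 0.11). Without WT lithium male 1, 4 genes passed, without WT lithium male 3, 2 did, and with marker scores as covariates 7 did. For the fit with covariates the share of all genes is not given here. Unadjusted, 10 genes (31.25%) had a limma p under 0.05, against 12.7% of all genes, and after adjustment edgeR called 0. Without WT lithium female 5 and male 2 the Ash1l difference was 0.19 (adjusted p = 0.88), that of Setd5 0.12 and that of Kmt2c 0.20.

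**Figure D4:**
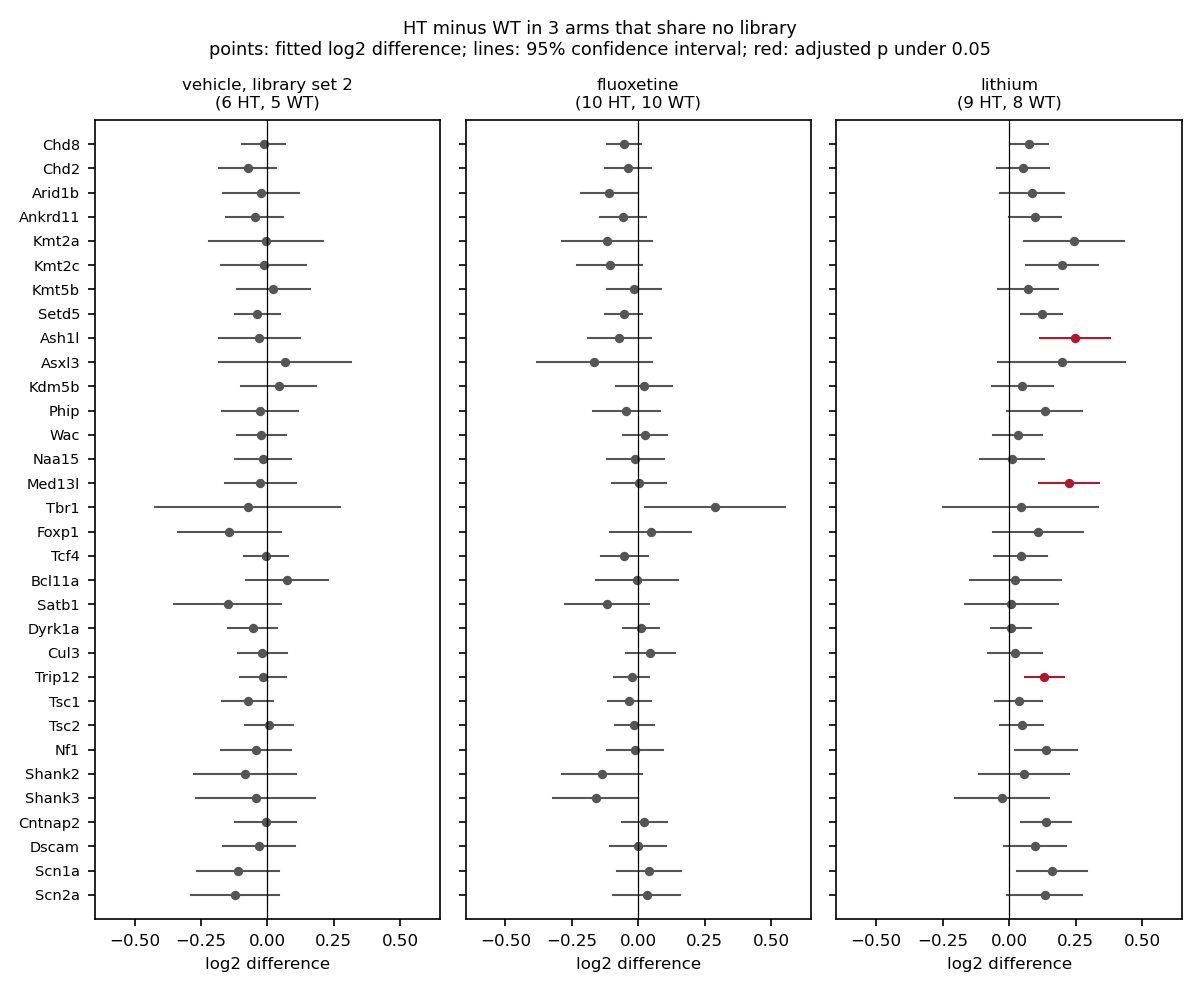
HT minus WT log2 differences (x axis, points) with 95% confidence intervals (lines) of the 32 genes (y axis, in the order chromatin and transcription, signalling and turnover, synapse and channels) in 3 arms that share no library. Red marks an adjusted p under 0.05, reached under lithium by Ash1l (0.25), Med13l (0.22) and Trip12 (0.13); 31 of 32 points lie above 0 there, against 5 under vehicle and 10 under fluoxetine, and 26 do under lithium without WT lithium female 5 and male 2.

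Fluoxetine was compared with vehicle in each genotype. In HT, 0 of the 32 genes passed over all libraries (1.22% of all genes), and 0 passed within set 1, between 10 fluoxetine and 8 vehicle libraries (0.167%). At an unadjusted p under 0.05 limma counted 4 (12.5%, against 13.7% of all genes) and 1 (3.1%, against 10.8%), and after adjustment edgeR called 0 in both. Over all libraries the smallest p-values were those of Setd5 (-0.08), Shank3 (-0.19) and Arid1b (-0.12). Within set 1 Kmt2a had a lowest, median and highest value of 3407, 4117 and 4822 in the 10 HT fluoxetine libraries and 4063, 4658 and 5261 in the 8 HT vehicle libraries. The groups overlapped widely, and Kmt2a had the smallest p-value (log2 difference -0.19, SE 0.08, adjusted p = 0.40), followed by Tsc2 (-0.06) and Tbr1 (0.25). Their median was -0.0019 in that set. In WT, 4 genes fell and 0 rose under fluoxetine, where 2.29% of all genes fell and 3.14% rose: Foxp1 (-0.25, adjusted p = 0.025), Nf1 (-0.15), Tcf4 (-0.13) and Setd5 (-0.12). No set holds both WT fluoxetine and WT vehicle libraries, so drug and library set cannot be told apart there. Tcf4 had a lowest, median and highest value of 8353, 8957 and 9229 in the 10 WT fluoxetine libraries, all below the set 3 WT vehicle values given above and overlapping those of set 2. The count was 0 without WT fluoxetine female 2 or male 4, 1 without WT fluoxetine female 1 or 5, and 2 without WT fluoxetine male 2, 3 or 5, WT vehicle female 1, 4 or 5 or WT vehicle male 1, 2, 4 or 5. With the same marker scores as covariates, which leave out the olfactory bulb, 17 genes were lower. The share of all genes under that fit is not given here. All 8 olfactory bulb markers were above 0 in this comparison (median 0.60, none past the threshold), and 32 of 75 ribosomal protein genes rose and 1 fell (median 0.19); their part was not tested.

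Between lithium and vehicle in HT, 2 of the 32 genes were higher over all libraries and 0 lower (1.03% of all genes rose and 0.491% fell). All lithium libraries belong to set 2, whereas 8 of the 16 HT vehicle libraries belong to set 1 and 2 to set 3. Pooled, drug and library set therefore differ together. Chd2 rose by 0.17 (SE 0.04, adjusted p = 0.026) and Shank2 by 0.26 (SE 0.07, adjusted p = 0.046), while Tsc1, which missed the threshold, was at 0.13 (adjusted p = 0.053). Neither Chd2 nor Shank2 passed within set 2. There the lithium difference of Shank2 was -0.01 in WT, and it was greater by 0.14 in HT than in WT. The count was 0 without HT lithium female 2, female 3, male 1 or male 2. It was 1 without any 1 of the other 5 HT lithium libraries, of HT vehicle females 1, 2, 5 and 6 and of HT vehicle males 3, 4, 5 and 8, and it was 0 with marker scores of other cell types as covariates. All 8 olfactory bulb markers lay below 0 here (median -1.15) and all 10 striatal neuron markers above 0 (median 0.78), none past the threshold; their part was not tested. Within set 2, with 9 lithium and 6 vehicle libraries, 0 of 32 passed (0.162% of all genes), and edgeR called 0. At an unadjusted p under 0.05 there were 6 (18.75%), against 10.7% of all genes. Chd2 had a lowest, median and highest value of 1709, 1898 and 2052 in the 9 HT lithium libraries and 1597, 1692 and 1828 in the 6 HT vehicle libraries (log2 difference 0.14, SE 0.05, adjusted p = 0.20). Dyrk1a, a kinase needed for neuronal growth, had a lowest, median and highest value of 2078, 2319 and 2595 in the 9 HT lithium libraries and 2029, 2125 and 2278 in the 6 HT vehicle libraries (log2 difference 0.12, SE 0.04, adjusted p = 0.21). Trip12 had a lowest, median and highest value of 5058, 5481 and 5892 in the 9 HT lithium libraries and 4953, 5034 and 5269 in the 6 HT vehicle libraries (log2 difference 0.11, SE 0.04, adjusted p = 0.22). In all 3 genes the lithium median lay above the vehicle highest value, and the groups overlapped. The median over the 32 was 0.08, with 28 above 0, against 0.0018 over all genes.

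Lithium in WT left 15 of the 32 genes lower and 1 higher. This share is to be read against 17.5% of all genes lower and 18.6% higher, and against sets, since 10 of the 15 WT vehicle libraries belong to set 3. Of the 20 chromatin and transcription genes 12 were lower: Asxl3 (-0.57), Kmt2a (-0.34), Bcl11a (-0.32), Phip (-0.29), Ash1l (-0.28), Kmt2c (-0.25), Tcf4 (-0.22), Setd5 (-0.19), Arid1b (-0.17), Wac (-0.16), Naa15 (-0.14) and Chd8, a chromatin remodeller (-0.11). Of the 6 synapse and channel genes Cntnap2 (-0.23) and Dscam, an adhesion molecule (-0.13), were lower, and with TMM scaling the adjusted p of Dscam was 0.058. Of the 6 signalling genes Cul3 was lower (-0.14) and Tsc1 higher (0.11). Without WT lithium female 5 and male 2 there were 3 higher and 9 lower of the 32. In that fit 2500 of all 17922 genes were higher and 1974 lower, against 3340 and 3138 with all libraries. All 8 olfactory bulb markers lay below 0 (median -1.11) and 9 of 10 oligodendrocyte markers above 0, 3 of them past the threshold (median 0.35). Of 75 ribosomal protein genes 51 rose and 1 fell (median 0.25), and of 87 oxidative phosphorylation genes 60 rose and 3 fell (median 0.24). Without both libraries 37 and 42 of these rose (medians 0.19 and 0.16). The part of these lists was not tested.

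Within set 2, where 8 WT lithium libraries meet 5 WT vehicle libraries, 6 of the 32 (18.75%) had an unadjusted p under 0.05. Of all genes 12.1% did. After adjustment 0 of the 32 passed (0.664% of all genes), and edgeR called 0. Cntnap2 came nearest (log2 difference -0.19, SE 0.05, adjusted p = 0.083), with the values given above; all 8 lithium libraries lay below the vehicle median, the groups overlapped, and without female 5 and male 2 it stood at -0.11. Setd5 had a lowest, median and highest value of 3322, 3817 and 4072 in the 8 WT lithium libraries and 3995, 4015, 4065, 4106 and 4150.0 in the 5 WT vehicle libraries (log2 difference -0.12, SE 0.04, adjusted p = 0.14). Dscam had a lowest, median and highest value of 1969, 2531 and 2641 in the 8 WT lithium libraries and 2602, 2686, 2761, 2820.4 and 2871 in the 5 WT vehicle libraries (log2 difference -0.17, SE 0.06, adjusted p = 0.21). All 8 lithium libraries of Dscam and 7 of the 8 of Setd5 lay below the vehicle median. Without female 5 and male 2, Setd5 stood at -0.06 and Dscam at -0.09. The difference of Asxl3 went from -0.57 over all libraries to -0.22 in set 2 (-0.06 without both libraries), and that of Bcl11a from -0.32 to 0.01. In this set the 32 genes had a median of -0.04, or -0.01 without both libraries. Without WT lithium male 3, 1 gene passed, and with marker scores of other cell types as covariates 4 were lower. For the fit with covariates the share of all genes is not given here.

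**Figure D5:**
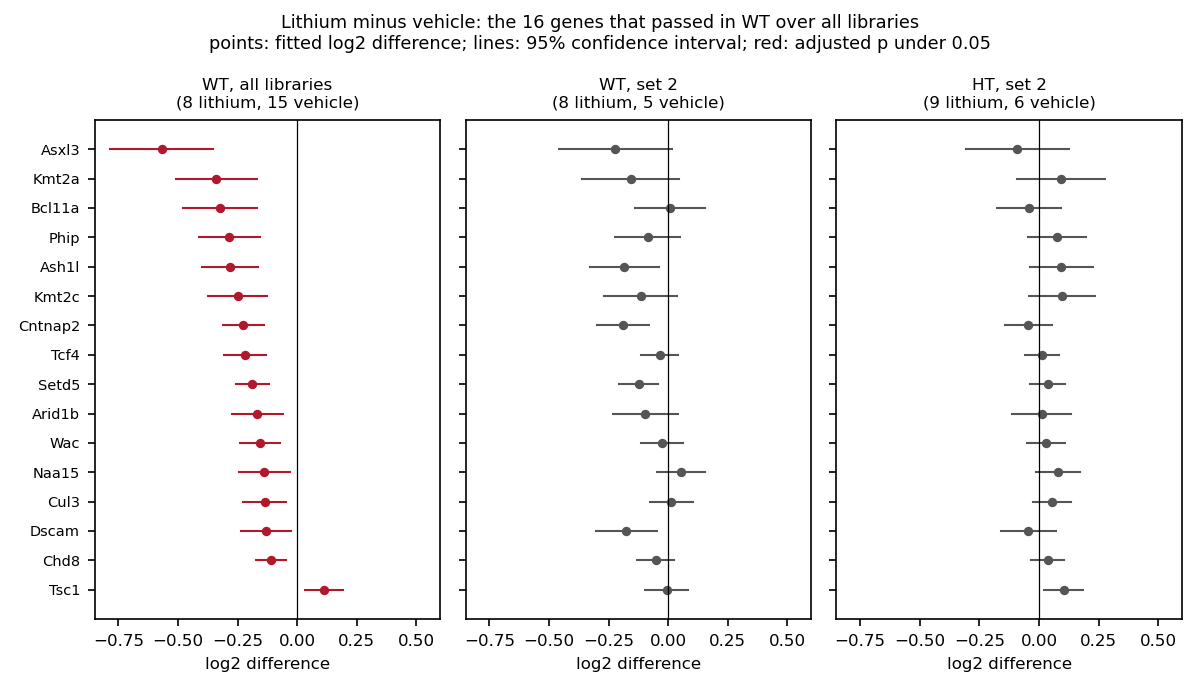
Lithium minus vehicle log2 differences (x axis, points) with 95% confidence intervals (lines) for the 16 genes (y axis) that passed in WT over all libraries; red marks an adjusted p under 0.05. All 16 pass in the first panel by selection; in set 2 none passes in WT or HT, and Bcl11a goes from -0.32 to 0.01 in WT.

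Whether lithium acted differently in the genotypes was tested within set 2 as the lithium effect in HT minus that in WT. None of the 32 genes passed with limma or edgeR (0.00% of all genes with limma). At an unadjusted p under 0.05 there were 10 (31.25%), against 8.96% of all genes. The smallest p-values were those of Setd5 (log2 difference 0.16, SE 0.05, adjusted p = 0.39), Med13l (0.25) and Ash1l (0.28). The difference was above 0 for 31 of 32 genes with a median of 0.13. Without WT lithium female 5 and male 2 it was above 0 for 27 with a median of 0.06, Setd5 then being at 0.10, Med13l at 0.12 and Ash1l at 0.15. Of all genes 50.5% were above 0, and of genes of at least 100 kb 73.4%. Without both libraries these shares were 51.3% and 66.5%. The genotype effect under vehicle did not pass a test of sex for any of the 32 genes either (0.00% of all genes with limma). Of the 32, 0 had an unadjusted p under 0.05, against 3.69% of all genes, and after adjustment edgeR called 0. Females minus males, Kmt5b was at 0.16 (interval -0.01 to 0.32), Phip at 0.16 (-0.04 to 0.37) and Ash1l at 0.13 (-0.06 to 0.32). This test used the pooled vehicle libraries, in which set and genotype differ together.

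Other autism and neurodevelopmental genes, placed in 4 lists that share no gene with the 32, are counted next. Under vehicle over all libraries, where 7.74% of all genes were higher and 7.21% lower, 1 of 50 chromatin and transcription genes was higher and 8 lower, led by the BAF core subunit Smarcc1 (-0.12) and the ciliary factor Rfx3 (-0.18), with the remodeller Chd4 higher (0.12). Of 31 synapse and adhesion genes 7 were lower, among them the neuroligins Nlgn1 (-0.16) and Nlgn3 (-0.13), and of 22 channel and transporter genes 5 were lower, among them the potassium channel gene Kcnq3 (-0.18). Of 29 signalling and protein turnover genes 2 were higher and 1 lower. Within set 2 no gene of the 4 lists passed. Under lithium 1 of 50 chromatin, 0 of 31 synapse, 2 of 22 channel and 1 of 29 signalling genes were higher in HT and 0 lower, where 1.48% of all genes were higher. They include the calcium channel genes Cacna1e (0.26) and Cacnb2 (0.19) and the ubiquitin ligase Huwe1 (0.18). No gene of the 4 lists passed without WT lithium female 5 and male 2, and these 3 then stood at 0.14, 0.16 and 0.06. The 50 chromatin genes had a median of 0.11 under lithium (0.04 without both libraries) and 0.01 over the 3 arms, next to 0.08 and 0.02 for the 20 members of that class. Of 30 BAF subunits, Arid1b and Bcl11a among them, 0 passed under lithium with limma, and over the 3 arms 0 did, where 4.65% of all genes passed.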

How the data were processed

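RNA from the prefrontal cortex of 68 mice had been made into stranded, poly(A)-selected libraries, 1 per sample, per the labels' protocols. The deposited table gives a signal per gene and library that the authors made by dividing a gene count by 1 size factor per library; dividing each column by the value of 1 read gave whole reads for 100% of values, within 0.01. Salmon 0.11.2, DESeq2 1.19.11, R 3.6.0 and the build GRCm38 are listed, with no role given, per the submitters' processing notes, and how strand was used in counting is not given in the sources used here. Recovered depth was 22356015 to 37534435 reads per library, which bounds the counting error of these well expressed genes; the spread between libraries enters each test.

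Every test was fitted over all genes with limma 3.58.1 (R 4.3.3, mean-variance trend, robust) on log2(value + 1), for the 17922 genes whose mean reached 5 (166 did not), with Benjamini-Hochberg adjustment over all of them and a threshold of 0.05. Fold changes are on that scale, which understates those of low genes. The 12 groups of genotype, treatment and sex, taken from the labels, entered 1 model, and comparisons within library sets entered a model of group and set. Sexes were weighted equally. A count test had been foreseen as an option, and edgeR 4.0.16 on the recovered reads is an alternative here, because the deposited unit is not counts. Library sets came from average-linkage clustering of 361 pseudogenes, cut into 3 sets. That number was preset and not estimated from the data. Positions and spans are from GENCODE vM21, and promoter windows from RefSeq on GRCm38.p6.

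The 32 members and all gene lists were chosen with earlier results of these data known. In each comparison every member that passed is named, and where fewer than 3 passed, the 3 with the smallest p; group values are given for the 6 members with the smallest p over the genotype mean of 3 arms and the 6 in the drug comparisons within sets. Other genes shown by library were chosen after their values were seen. From each other list at most 4 genes with the smallest p are named. Some genes of these lists are not reported here. Alternatives were pseudocounts of 0.5 and 8, no filter or a mean of at least 50, TMM scaling, edgeR, a replicate block, marker scores as covariates and leaving out each library in turn. The marker scores were those of astrocyte, oligodendrocyte, endothelial, striatal neuron and choroid plexus markers, without olfactory bulb markers. The comparisons of library sets, of set 3 males and of lithium with fluoxetine, and the fits without WT lithium female 5 and male 2, were added after seeing the data. The scripts were tested on simulated data.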

Additional observations from a re-analysis of the deposited data

Results flagged for a closer look

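Of 110 combinations of a named gene and a labelled group, 4 had a library far from the others of its group by Dixon's criterion, and chance flags about 1 group in 20. Med13l read 3363 in HT lithium female 1, where the next of the 4 libraries read 3114. Satb1 read 3999 in WT vehicle male 4, which belongs to library set 3, where the next of 7 read 3281. Ash1l read 3243 in WT vehicle female 3, the lowest of 8, where the nearest read 4020. Dyrk1a read 2029 in HT vehicle female 6, the lowest of 8, where the nearest read 2119. No member passed a test of a difference between the genotype effects in both sexes or between the lithium effects in both genotypes.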

How the results depend on the processing

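The counts of members passing were the same under pseudocounts of 0.5 and 8, both filters and edgeR as in the values reported, or within 1.5 times of them. Of 44 named calls, TMM scaling ended 1 (Dscam, lithium in WT), marker covariates 9, and the exclusion of WT lithium female 5 and male 2 ended 9 of 19; none changed sign. With marker covariates the counts became 6 for genotype under lithium, 17 for fluoxetine in WT, 0 for lithium in HT over all libraries, 4 for lithium in WT within set 2 and 7 for the lithium minus fluoxetine genotype effect. Shares of all genes under these fits are not given here. Without WT lithium female 5 and male 2 the count for genotype under lithium was 0. Leaving out 1 library at a time gave 1 to 11 members for genotype under pooled vehicle, 0 to 5 for genotype under lithium, 0 to 5 for fluoxetine in WT, 0 to 3 for lithium in HT and 13 to 19 for lithium in WT over all libraries, 0 to 1 for lithium in WT within set 2, 9 to 14 for set 3 against set 2 and 0 to 4 for lithium minus fluoxetine. The cause was not tested.

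With the replicate number as a block the counts were 10 for fluoxetine in WT, 6 for lithium in HT over all libraries and 8 for set 3 against set 2, and 6 named calls ended. Shares of all genes under that block are not given here. The labels do not say that a number pairs animals, and correlations of same-numbered libraries exceeded 0.1 in 2 of 8 female and 5 of 7 male vehicle pairs, 3 of 5 and 0 of 5 fluoxetine pairs and 0 of 4 and 2 of 3 lithium pairs. Every lithium male correlated best with its own number (3 of 3), and no other pair of groups had more than 1 such library.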
